A study of Homo sapiens with 18 samples.

Results

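Posterior neural ectoderm (pNE) was compared with anterior neural ectoderm (aNE), both made in 2 days from the human embryonic stem cell line H1, an established line of wild-type genotype. The comparison took 4 of the 18 poly-A RNA libraries of the series, 2 of each kind, chosen by their labels alone. On day 1 all cells had the same medium, with 4 inhibitors: A8301 at 1 µM against activin and TGF-beta receptors, LDN193189 at 100 nM against BMP receptors, Trametinib at 250 nM against the kinase MEK, and C59 at 1 µM against porcupine, an enzyme that WNT ligands need for secretion. The cells were then replated singly at 37500 cells per cm2, and on day 2 both kinds had A8301 at 1 µM, LDN193189 at 100 nM and the ROCK inhibitor Thiazovivin at 1 µM. For aNE this medium also held C59 at 1 µM. For pNE it held no C59 but TTNPB, a synthetic agonist of the retinoic acid receptors, at 50 nM, the growth factor FGF2 at 20 ng/mL, and XAV939, a tankyrase inhibitor that dampens WNT signalling inside the cell, at 1 µM. The 2 undifferentiated H1 libraries (hPSC) give the starting level of each gene. A total of 4 agents thus differed at once, so what each of them did cannot be told apart, and all cells came from 1 line in culture.

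The embryonic neural plate is patterned along its length soon after it forms. Anterior cells, which build forebrain and midbrain, keep the transcription factor OTX2. Posterior cells, which build the hindbrain, take up GBX2, and the line where these repress each other becomes the boundary between midbrain and hindbrain. Retinoic acid made in the flanking mesoderm binds its receptors RARA, RARB and RARG on DNA, and among the earliest genes it switches on are those at the start of the HOX clusters, which give hindbrain segments their identity. FGF ligands act in posterior tissue through the kinases MEK and ERK, whose activity induces its own inhibitors, the Sprouty, Spred and DUSP proteins, together with the ETV transcription factors.

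Values were TPM, a relative abundance of transcripts scaled for their length, which keeps no record of read number, so the depth of the libraries is unknown and no counting error is given. The series describes the 2 libraries of a group as biological replicates, without saying how far apart the cultures were. The p-values rest on the spread between such libraries pooled over all 9 groups of the series, not over aNE and pNE alone. In the 4 libraries 14272 to 14679 genes reached 1 TPM, the 10 most abundant genes took 5.93% to 6.47% of the total, and mitochondrial transcripts took 3.19% and 3.28% in aNE and 2.96% and 3.74% in pNE. Across the 14763 genes tested, which are not independent replicates, Pearson's r of log2(TPM + 1) was 0.986 between the aNE libraries, 0.982 between the pNE libraries and 0.960 to 0.962 between kinds. The aNE libraries differed by at least 1 on the log2 scale at 378 genes (2.56%) and the pNE libraries at 450 (3.05%), whereas libraries of different kinds did so at 1029 to 1138 genes (6.97% to 7.71%). The median absolute log2 difference was 0.119 between the aNE libraries, 0.190 between the pNE libraries and 0.212 to 0.263 between kinds. The pNE pair was thus less alike than the aNE pair.

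Of the 14763 genes, 647 (4.38%) differed between pNE and aNE at an adjusted p under 0.05 with a log2 difference of at least 1, and these are the genes called below. In pNE 398 (2.70%) were higher and 249 (1.69%) were lower. Each count of called list members below is to be read beside these shares. The lists were chosen with earlier results of these data known, so such counts are descriptions and not independent support. The 2 pNE values of all 647 lay outside the 2 aNE values, but so did those of 54.8% of all genes tested, so a lack of overlap alone says little here. At the adjusted p alone, 2382 genes (16.1%) passed, 1289 higher (8.73%) and 1093 lower (7.40%). Higher genes had a median absolute log2 difference of 1.48, and 29 of them exceeded 3. Lower genes had a median of 1.35, and 10 exceeded 3. A mean under 1 TPM in aNE was found for 107 of the higher genes, and one under 1 TPM in pNE for 62 of the lower genes. Differences are on the log2(TPM + 1) scale throughout, which understates the change of genes with low values, and the median over all genes tested was -0.02.

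**Figure D1:**
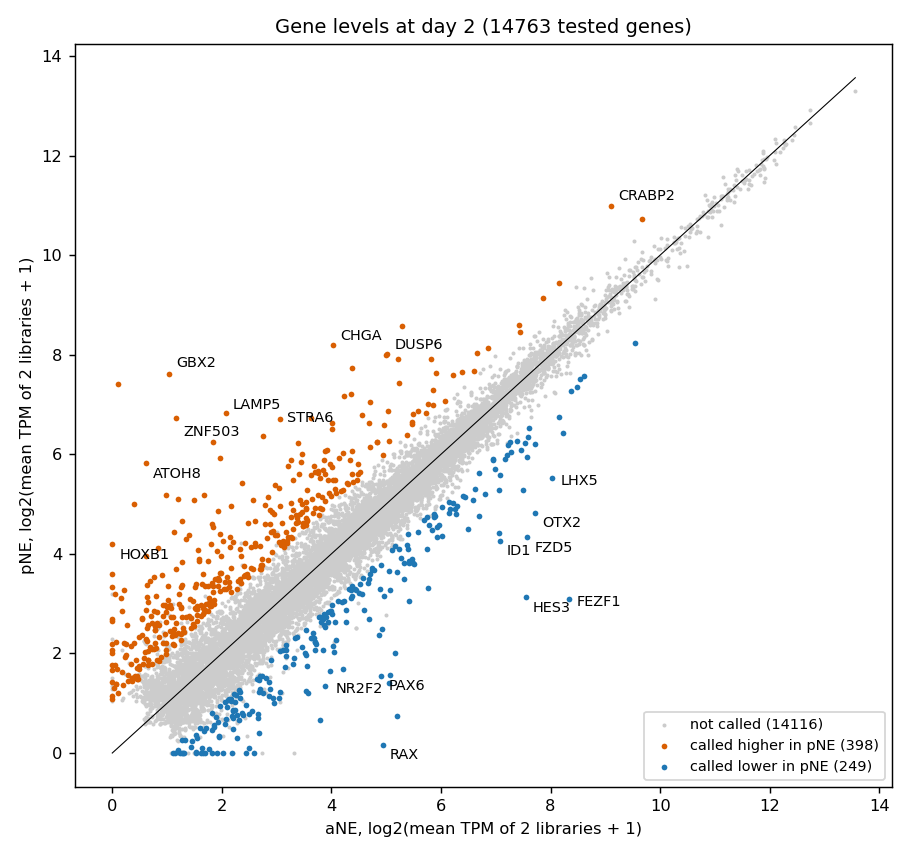
Level of each of the 14763 tested genes in aNE (horizontal axis) and pNE (vertical axis), as log2 of the mean TPM of 2 libraries plus 1. Orange points are the 398 genes called higher in pNE, blue points the 249 called lower and grey points genes not called. The line marks equal levels. GBX2 lies toward the left edge, far above the line, and RAX near the bottom edge.

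Forebrain regulators were abundant in aNE and mostly lower in pNE. OTX2, the homeobox factor that marks forebrain and midbrain, stood at 26.1 and 28.5 TPM in hPSC, 203 and 214 TPM in aNE and 28.3 and 26.6 TPM in pNE, 7.61-fold lower in pNE than in aNE (log2 difference -2.88, SE 0.14, adjusted p = 1.08e-08). The pNE level thus sat beside that of undifferentiated cells, and only the aNE libraries were high. FEZF1, a zinc finger repressor of the anterior forebrain, fell furthest of all genes: 323 and 325 TPM in aNE and 5.66 and 9.51 TPM in pNE (log2 difference -5.28, SE 0.23, adjusted p = 4.55e-09). RAX, which the eye field requires, was found at 26.8 and 32.2 TPM in aNE and 0.0559 and 0.183 TPM in pNE (log2 difference -4.77, SE 0.42, adjusted p = 3.22e-06), with both pNE values close to those of hPSC, 0.0568 and 0.0811 TPM. LHX5, a LIM homeobox factor of the anterior plate, had 258 and 258 TPM in aNE and 38.7 and 51.1 TPM in pNE (-2.51, adjusted p = 3.44e-06). SIX3, which keeps posterior fate out of the forebrain, had 187 and 192 TPM in aNE and 49.7 and 71.7 TPM in pNE (-1.65, adjusted p = 4.78e-06), so a clear level was left in pNE. HESX1, an early repressor of the anterior plate, was at 105 and 118 TPM in aNE and 40.5 and 30.9 TPM in pNE (-1.62, adjusted p = 0.000374).

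Not every forebrain gene followed. LHX2, needed for eye and cortex, was measured at 14.3 and 14.3 TPM in aNE and 12.1 and 15 TPM in pNE (-0.08, adjusted p = 0.902), and SIX6, a partner of SIX3 in the optic field, at 2.16 and 2.76 TPM in aNE and 1.88 and 2.31 TPM in pNE (-0.16, adjusted p = 0.622); both pairs of values were close and neither passed the test. VAX2, a ventral eye factor, was higher in pNE at low values, 0.394 and 0.29 against 2.46 and 2.87 TPM (1.45, adjusted p = 0.000196). FEZF2, the relative of FEZF1, was called lower with 14.4 and 12.6 against 4.6 and 7.26 TPM (-1.09, adjusted p = 0.00709), but that call was lost without aNE replicate 1 (adjusted p = 0.0654) and without pNE replicate 1 (log2 difference -0.81, adjusted p = 0.0891). Of the 17 forebrain and eye field genes listed, 11 were tested, 7 were lower in pNE and 1 was higher, against 1.69% and 2.70% of all genes. Both VAX genes passed the filter on low values only through pNE and RAX only through aNE, so the count is a description. Without pNE replicate 1, VAX1 joined the higher genes, which made 2. NKX2-1, EMX2 and DMRTA2, which mark later forebrain regions, were under 1 TPM in all 4 libraries, and so was OTX1, the relative of OTX2, at 0.747 and 0.803 TPM in aNE and 0.0971 and 0.163 TPM in pNE.

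Hindbrain regulators took the opposite course. GBX2 was found at 2.75 and 2.81 TPM in hPSC, 1.04 and 1.05 TPM in aNE and 172 and 216 TPM in pNE, a 185-fold difference between the means of pNE and aNE (log2 difference 6.56, SE 0.19, adjusted p = 1.02e-10). OTX2 and GBX2 therefore exchanged places: OTX2 exceeded GBX2 in both aNE libraries and GBX2 exceeded OTX2 in both pNE libraries. ZNF503 and ZNF703 encode related zinc finger repressors of the NET family that act in hindbrain segmentation. ZNF503 had 1.04 and 1.43 TPM in aNE and 88.1 and 122 TPM in pNE (log2 difference 5.55, SE 0.17, adjusted p = 1.21e-10), and ZNF703 2.52 and 1.84 TPM in aNE and 26.8 and 43.7 TPM in pNE (3.48, adjusted p = 1.99e-07). EGR2, which marks the third and the fifth segment, was at 0.734 and 1.09 TPM in aNE and 0.244 and 0.534 TPM in pNE and was not tested. EPHA4, an ephrin receptor of hindbrain segments that the forebrain also uses, was the 1 hindbrain gene of 11 tested that was lower in pNE, at 87.6 and 89.9 against 21.1 and 22.5 TPM (-1.98, adjusted p = 1.02e-06).

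The HOX genes that reached 1 TPM in pNE all belonged to the start of the HOXA and HOXB clusters. HOXB1 was listed at 0 in both aNE libraries and had 15.2 and 19.5 TPM in pNE (log2 difference 4.19, SE 0.14, adjusted p = 1.73e-10). HOXB2 was likewise listed at 0 in aNE and had 10.5 and 11.7 TPM in pNE (3.59, adjusted p = 4.85e-09). Both were seen in pNE and in neither aNE library. HOXA2 rose from 0.319 and 0.208 TPM to 2.98 and 3.85 TPM (1.80, adjusted p = 5.21e-06). HOXA3, listed at 0 in aNE, had 1.38 and 3.44 TPM in pNE (1.70, adjusted p = 0.000237), and in a fit of the 4 libraries alone its adjusted p was 0.0531. Of the 39 HOX genes, 34 were under 1 TPM in all 4 libraries, and 12 of those were listed at 0 in all 4. HOXB3 came nearest, with 0.981 and 0.709 TPM in pNE. The 5 HOX genes tested had passed the filter only through pNE, which was also true of 7 of the 11 hindbrain genes tested, so their number carries no weight of its own. HOX genes overlap antisense transcripts, and no source used here says whether strand was used in quantification.

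**Figure D2:**
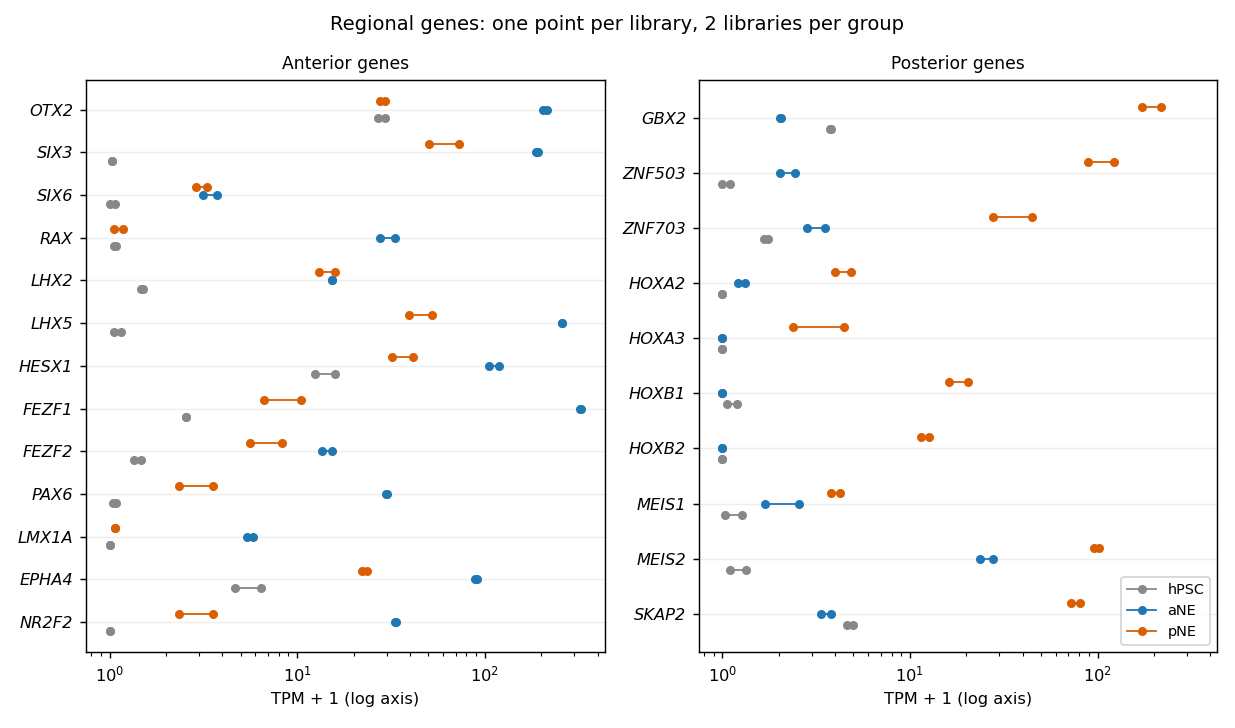
TPM + 1 on a log axis for 13 genes under the heading anterior and 10 under posterior, in hPSC (grey), aNE (blue) and pNE (orange). Each point is 1 library and a line joins the 2 of a group. The panels are a selection and not the gene lists. The anterior panel holds EPHA4 of the hindbrain list and NR2F2 of the retinoid receptor list, and VAX1, VAX2 and EGR2 are not drawn. OTX2 in pNE lies beside hPSC, SIX6 and LHX2 show pNE and aNE points close together, and HOXB1 and HOXB2 lie near the left edge in hPSC and aNE.

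In the HOXA cluster (chromosome 7, GRCh38.p14, RefSeq gene positions), HOXA2 (chr7:27100354-27102683) had in pNE 2.98 and 3.85 TPM, HOXA3 (chr7:27107010-27152583) 1.38 and 3.44 TPM, and HOXA5 0.248 and 0.276 TPM. A gene outside the cluster was also among the 15 largest rises: SKAP2 (chr7:26654770-26864590), an adaptor protein of the SRC kinase pathway. It had 2.79 and 2.34 TPM in aNE and 79.3 and 70.9 TPM in pNE (log2 difference 4.42, SE 0.19, adjusted p = 3.64e-09), against 3.62 and 3.96 TPM in hPSC. On the far side of the cluster from SKAP2, HIBADH, a valine breakdown enzyme, had 26.6 and 22.5 TPM in aNE and 21.8 and 20.7 TPM in pNE, and EVX1 was under 1 TPM in all 4. SKAP1, the relative of SKAP2 near HOXB1, was under 1 TPM in all 4. HIBADH and SKAP1 were chosen for their place after the rise of SKAP2 was seen.

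HOX proteins bind DNA with cofactors of the MEIS, PBX and PKNOX families. MEIS2 was the 1 of 9 called, at 26.7 and 22.8 TPM in aNE and 94.7 and 101 TPM in pNE (log2 difference 1.95, SE 0.12, adjusted p = 1.26e-07), and none was lower; the median of the 9 was 0.51 against -0.02 for all genes. MEIS1 had 1.55 and 0.688 against 2.78 and 3.26 TPM (0.95, adjusted p = 0.0103) and MEIS3 29.4 and 30.4 against 48.3 and 56.4 TPM (0.78, adjusted p = 0.000144), both under the threshold of size. The values of PBX3 overlapped (23 and 18.6 against 19.3 and 19.5 TPM). Without aNE replicate 1, or without pNE replicate 1, MEIS1 was called too.

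Genes of the midbrain and of the organizer at its hind border were low in both kinds. EN1, EN2, PAX5, PAX8, FGF17, CNPY1 and WNT1 were under 1 TPM in all 4 libraries. LMX1A, a factor of the dorsal midline and midbrain floor, was lower in pNE, 4.41 and 4.8 against 0.0665 and 0.0719 TPM (-2.39, adjusted p = 1.49e-06), having passed the filter only through aNE. FGF8, the organizer's ligand, had 4.69 and 3.63 TPM in aNE but an uneven 0.0895 and 1.41 TPM in pNE (-1.66, adjusted p = 0.00348). Without pNE replicate 1 its log2 difference was -1.09, and the fit of 4 libraries alone gave an adjusted p of 0.0716. FGF18 was the 1 member higher, 0.488 and 0.171 against 2.03 and 1.83 TPM (1.15, adjusted p = 0.00144), and missed the threshold of size without aNE replicate 2 (0.98). In all, 5 of 12 were tested, and 3 of these had reached 1 TPM in libraries of 1 kind only.

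Several genes that take up, store, carry and sense retinoids were higher in pNE, the kind that received TTNPB. RARB, the receptor whose own gene is a classical retinoic acid target, had 0.105 and 0.134 TPM in hPSC and 1.28 and 1.08 TPM in aNE and 21.4 and 20.04 TPM in pNE (log2 difference 3.31, SE 0.15, adjusted p = 6.48e-09). RARA rose less, 19.9 and 17.1 against 34.5 and 49.1 TPM (1.12, adjusted p = 5.44e-05), and without pNE replicate 2 its difference of 0.87 fell short of the threshold. RARG had 34.8 and 32.9 against 33 and 40.7 TPM and was not called (0.11, adjusted p = 0.723). RARB was the lowest of the 3 receptors in aNE, and the differences were not tested against each other. NRIP1, a corepressor that binds the receptors when ligand is present, rose from 12.1 and 11.9 to 46.8 and 51 TPM (1.94, adjusted p = 6.96e-08). NR2F2, an orphan receptor often counted among retinoic acid targets, went the other way: it was listed at 0 in hPSC and had 32.3 and 32.6 TPM in aNE and 1.35 and 2.58 TPM in pNE (log2 difference -3.53, SE 0.23, adjusted p = 1.59e-07).

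The promoters of RARB and CYP26A1 are shown because both hold the textbook retinoic acid response element, the DR5 direct repeat, yet only RARB was called. Both are from RefSeq on GRCh38.p14, plus strand, 5′ to 3′, with the element in capitals. The RARB stretch, chr3:25428150-25428262, is the 113 bases before 1 of its 4 RefSeq starts, and GENCODE v29 places it in an intron of longer RARB transcripts. The element lies 53 to 37 bases before that start.
RARB: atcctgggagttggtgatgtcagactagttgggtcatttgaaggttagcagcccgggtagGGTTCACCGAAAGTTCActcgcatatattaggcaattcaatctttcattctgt
The CYP26A1 site, chr10:93073803-93073819, lies 90 to 74 bases before 1 of its 2 RefSeq starts and inside a 5′ UTR exon of a transcript that starts further out. It matches on the opposite strand, and the site alone is printed.
CYP26A1: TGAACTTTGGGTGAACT
The DR5 element was sought on both strands in the 250 bases before the start, in 16084 windows of 10899 tested genes with a RefSeq promoter. It was present in 8 genes (0.0734%), and 1 of the 284 genes called higher with a promoter held it (0.352%), namely RARB, against 0 of 165 called lower. The DR1 and DR2 repeats were present in 17 (0.156%) and 5 genes (0.0459%), none of them called. A match of letters is a description and not a bound site, and elements further from the start were not sought.

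CYP26A1, the enzyme that degrades retinoic acid, was abundant in both kinds: 4.56 and 5.16 TPM in hPSC, 219 and 223 TPM in aNE and 352 and 348 TPM in pNE. The pNE values were higher than both aNE values, but the difference stayed below the threshold of size (log2 difference 0.66, SE 0.17, adjusted p = 0.0193). The level in aNE, which had no agonist, was thus well above that of hPSC. CYP26B1 was under 1 TPM in all 4, and CYP26C1 had 0.686 and 0.989 against 1.71 and 1.45 TPM (0.49, adjusted p = 0.142). CRABP2, which carries retinoic acid to the nucleus, was the most abundant retinoid gene, 555 and 540.4 TPM in aNE and 2091 and 1982 TPM in pNE (log2 difference 1.89, SE 0.09, adjusted p = 9.99e-09). STRA6, the membrane channel for retinol, had 7.75 and 7 against 88.9 and 119 TPM (3.64, adjusted p = 1.73e-10). LRAT, which esterifies retinol for storage, had 1.35 and 2.26 against 34.5 and 31.4 TPM (3.62, adjusted p = 1.45e-08). DHRS3, which turns retinal back to retinol, had 15.1 and 18.3 against 56.4 and 62.9 TPM (1.78, adjusted p = 3.7e-07). These called members handle retinol, retinal and carriage. Enzymes that make retinoic acid were low: ALDH1A2 had 1.47 and 1.19 against 0.124 and 0.607 TPM (-0.79, adjusted p = 0.164), ALDH1A3 1.03 and 1.74 against 3.62 and 3.32 TPM (0.92, adjusted p = 0.0436), and ALDH1A1 was under 1 TPM in all 4. CRABP1, at 159 and 177 against 216 and 236 TPM (0.42, adjusted p = 0.000385), was not called. Of 14 genes in this group 11 were tested, 5 were higher and none lower; of the 10 receptors and cofactors 8 were tested, 3 were higher and 1 lower. The shares over all genes were 2.70% higher and 1.69% lower.

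Feedback genes of ERK signalling were higher in pNE, the kind that received FGF2 after a day of MEK inhibition in both. DUSP6, the phosphatase that removes the active mark from ERK, stood at 149 and 156 TPM in hPSC, 29.3 and 33.6 TPM in aNE and 274 and 238 TPM in pNE (log2 difference 2.98, SE 0.08, adjusted p = 2.82e-11). SPRY4, a Sprouty inhibitor of the pathway, went from 53.1 and 61.4 TPM in hPSC to 6.4 and 5.03 TPM in aNE and 77.5 and 86 TPM in pNE (log2 difference 3.63, SE 0.10, adjusted p = 7.12e-11). For these and for IL17RD, a membrane inhibitor of FGF receptors (9.75 and 10.2 against 61.3 and 66.1 TPM; 2.56, adjusted p = 1.02e-10), aNE was below hPSC and pNE above it. ETV4 and ETV5, transcription factors induced by FGF, had 10.7 and 12.2 against 93.6 and 116 TPM (3.09, adjusted p = 2.7e-10) and 6.09 and 8.47 against 39.3 and 39.1 TPM (2.30, adjusted p = 1.09e-08). ETV1, their relative, did not follow, at 25.3 and 33.2 against 31.5 and 35.2 TPM (0.19, adjusted p = 0.454). DUSP4 (8.65 and 8.59 against 55.5 and 61.2 TPM; 2.62), DUSP5 (21.4 and 21.4 against 54.4 and 54.9 TPM; 1.31), SPRY1 (17.8 and 20.6 against 55.5 and 60.01 TPM; 1.54), SPRY2 (13.9 and 13.5 against 48.1 and 47.1 TPM; 1.73) and SPRED2 (15.6 and 12.6 against 59.7 and 75 TPM; 2.18) were called higher as well. These 5 are inhibitors of the pathway at several levels.

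Immediate early genes, which answer ERK within minutes, did not share one direction. EGR1 was called lower in pNE, at 2.35 and 2.56 TPM in hPSC and 15.7 and 15.3 TPM in aNE and 2.81 and 3.31 TPM in pNE (log2 difference -2.03, SE 0.17, adjusted p = 1.98e-06). FOS had 3.73 and 4.14 against 2.67 and 2.37 TPM (-0.49, adjusted p = 0.155), IER2 116 and 109 against 109 and 135 TPM (0.11, adjusted p = 0.741) and MYC 65.4 and 62.5 against 40.7 and 53.5 TPM (-0.45, adjusted p = 0.183), none called. PHLDA1 was higher (7.18 and 6.36 against 27 and 26.5 TPM; 1.84, adjusted p = 2.21e-08). IER3 (12.9 and 12.6 against 27.7 and 25.3 TPM; 1.00) and SPRED3 (2.97 and 1.94 against 7.71 and 6.79 TPM; 1.27) were called but fell out without aNE replicate 2 (0.99 and adjusted p = 0.0919) and without pNE replicate 1 (0.94 and adjusted p = 0.0618). Over the 22 genes, all tested, 13 were higher and 1 lower, against 2.70% and 1.69% of all genes, with a median difference of 1.29. The cyclin gene CCND1 (0.13, adjusted p = 0.439) and the receptor gene EPHA2 (0.67, adjusted p = 0.000229) were not called.

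**Figure D3:**
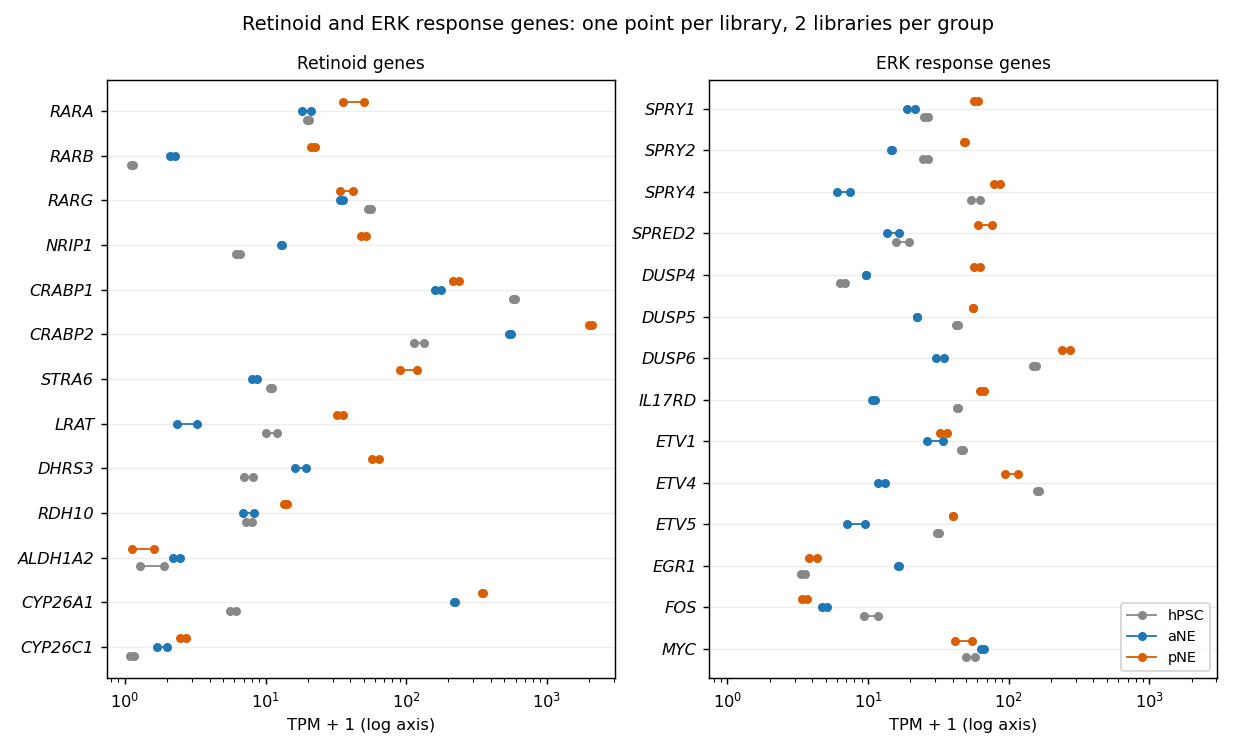
TPM + 1 on a log axis for 13 retinoid genes and 14 ERK response genes in hPSC (grey), aNE (blue) and pNE (orange), 1 point per library. CYP26A1 is high in both kinds, RARB lies to the right in pNE, and EGR1, FOS and MYC are the ERK genes whose aNE points lie to the right of pNE.

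FGF receptors and the ligand FGF2 differed by less than the threshold of size. FGFR1, the most abundant receptor, had 739 and 696 against 589.7 and 692 TPM (-0.17, adjusted p = 0.228), FGFR2 89.4 and 88.2 against 60.1 and 61.7 TPM (-0.54, adjusted p = 0.00967) and FGFR3 179 and 176 against 128 and 166 TPM (-0.29, adjusted p = 0.316). FGFR4 had the largest difference of the 4 receptors, 54.6 and 43.7 against 29.3 and 32.1 TPM (-0.66, adjusted p = 0.00124). The transcript of FGF2, the ligand given in the medium, had 41 and 37 against 29.5 and 28.5 TPM (-0.41, adjusted p = 0.03). None of these was called. FGF19, a ligand of the early hindbrain, was higher in pNE, 0.291 and 0.237 against 2.11 and 2.8 TPM (1.44, adjusted p = 0.000181), below its 15.9 and 17.3 TPM in hPSC. FGF13, an intracellular family member that is not secreted, was higher as well, 7.29 and 8.86 against 17.5 and 17.9 TPM (1.05, adjusted p = 4.1e-06), although without aNE replicate 1 the difference was 0.92. Of 20 ligands and receptors 14 were tested, 3 were higher and 1, FGF8, was lower, against 2.70% and 1.69% of all genes. FGF18 and FGF19, 2 of the 14, had passed the filter only through pNE.

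The 2 day-2 media targeted WNT signalling at different points, at ligand secretion in aNE and inside the cell in pNE. AXIN2, the most used readout of the pathway, had 23.4 and 22.5 TPM in hPSC, 6.27 and 5.55 TPM in aNE and 9.45 and 10.6 TPM in pNE (0.68, adjusted p = 0.000254), and was not called. TCF7, a transcription factor of the pathway, was higher in pNE, 5.55 and 3.98 against 14.7 and 18.7 TPM (log2 difference 1.62, SE 0.16, adjusted p = 1.2e-05). SP5, another target, had 1.44 and 2.08 TPM in aNE and an uneven 2.47 and 8.76 TPM in pNE (1.09, adjusted p = 0.0813). Without pNE replicate 1, SP5 was called too (1.83). NOTUM, RNF43, DKK1, DKK4 and LGR5 were under 1 TPM in all 4 libraries. Of 13 response genes 8 were tested, 1 was higher and none lower, with a median of -0.04.

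Among WNT receptors and secreted antagonists the called genes were all lower in pNE. FZD5, a receptor that the eye field uses, had 189 and 189.5 TPM in aNE and 17 and 21.4 TPM in pNE (log2 difference -3.24, SE 0.14, adjusted p = 4.51e-09), against 10.5 and 10.8 TPM in hPSC. FZD7, the most abundant receptor, had 342 and 328 against 276 and 324 TPM (-0.16, adjusted p = 0.249) and FZD2 97.9 and 98.3 against 81.3 and 104 TPM (-0.09, adjusted p = 0.639), and neither was called. FRZB, a secreted antagonist, had 57.7 and 62.4 against 18.3 and 20.4 TPM (-1.59, adjusted p = 1.21e-06). SHISA2 and SHISA3, which hold back maturing WNT and FGF receptors, had 134 and 129 against 35.3 and 40.5 TPM (-1.77, adjusted p = 4.39e-07) and 4.91 and 4.38 against 0.46 and 0.984 TPM (-1.73, adjusted p = 5.28e-05). WNT5A, a ligand of the non-canonical branch, had 4.25 and 3.82 against 7.85 and 9.88 TPM (0.96, adjusted p = 0.000198), just under the threshold of size, and it passed without aNE replicate 1 or without pNE replicate 1. In all 27 of 34 were tested, 4 were lower and none higher, against 1.69% and 2.70% of all genes. SHISA3, 1 of the 4, had passed the filter only through aNE. DACT1, an intracellular inhibitor of the pathway, was 1 of the 15 largest rises, 3.06 and 2.79 against 54.5 and 65.6 TPM (3.95, adjusted p = 5.08e-10).

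Both media held the inhibitors of BMP and activin receptors at equal doses, and inhibition itself was not measured. Some ligands and targets differed between the kinds. BMP4 had 2.38 and 5.46 TPM in hPSC and 209 and 210.3 TPM in aNE and 73.9 and 72.2 TPM in pNE (log2 difference -1.51, SE 0.20, adjusted p = 0.000152). BMP7 had 82.7 and 83.3 against 65.8 and 101 TPM and was not called (-0.03, adjusted p = 0.944). ID1 and ID2, inhibitors of basic helix-loop-helix factors and BMP targets, were lower in pNE: ID1 had 131 and 135 TPM in aNE and 15 and 21.3 TPM in pNE (log2 difference -2.83, SE 0.18, adjusted p = 1.34e-07), and ID2 54.4 and 52.7 against 7.62 and 10.4 TPM (-2.46, adjusted p = 3.18e-07). Their relatives ID3, at 450.2 and 476 against 469.7 and 488 TPM (0.05, adjusted p = 0.798), and ID4, at 18.2 and 17.5 against 18.6 and 19.1 TPM (0.08, adjusted p = 0.767), were not called and their values lay close together. The family thus split into a pair called lower in pNE and a pair with like values. GREM1, a secreted BMP antagonist, had 28.1 and 32 against 8.07 and 7.82 TPM (-1.79, adjusted p = 1.06e-08). Over the list, 12 of 15 were tested, 4 were lower and none higher, against 1.69% and 2.70% of all genes, with a median of -0.23. SMOC1, a secreted matrix protein that antagonizes BMP, was 1 of the 15 largest falls, 31.4 and 33.2 against 1.48 and 1.85 TPM (-3.65, adjusted p = 1.09e-08).

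In the NODAL group, TDGF1, the coreceptor also called CRIPTO, was higher in pNE, 3.47 and 3.52 against 32.9 and 27.8 TPM (2.80, adjusted p = 6.84e-08), far below its 558 and 575 TPM in hPSC. CER1, a secreted antagonist, was lower, 2.97 and 3.36 against 0.516 and 0.481 TPM (-1.47, adjusted p = 0.000546), and LEFTY1 and LEFTY2 were under 1 TPM in all 4. In the Notch pathway, the ligand DLL1 was lower in pNE, 13.2 and 14.4 against 1.16 and 1.93 TPM (-2.56, adjusted p = 0.00018), as were the receptor NOTCH3, 87 and 79.97 against 28.6 and 40.8 TPM (-1.27, adjusted p = 3.67e-05), and the target HES4, 12 and 12 against 2.95 and 4.5 TPM (-1.48, adjusted p = 0.00216). HES1, the best known target, had 38.4 and 39.5 against 53.4 and 57 TPM (0.49, adjusted p = 0.00457) and was not called. HEY2 was called higher at low values, 0.468 and 0.313 against 2.06 and 1.56 TPM (1.01, adjusted p = 0.00145), having passed the filter only through pNE; that call was lost without aNE replicate 2 (0.93) or pNE replicate 1 (0.88). HES3, a repressor that holds neural progenitors undifferentiated, was among the largest falls, 196 and 176 against 7.3 and 8.23 TPM (-4.41, adjusted p = 1.59e-07), with hPSC at 66.9 and 65.5 TPM in between. Of 14 Notch genes 12 were tested, 3 lower and 1 higher, against 1.69% and 2.70% of all genes. Of 12 Hedgehog genes 9 were tested and none was called, with a median of -0.61. By the adjusted p alone GAS1 (-0.92), CDON (-0.88), GLI3 (-0.68), SMO (-0.61) and GLI2 (-0.59) passed, all below 0. Over all genes 16.1% passed by that rule, 7.40% lower in pNE. Without aNE replicate 2, 1 Hedgehog gene was called lower, and without pNE replicate 2, 2 were.

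**Figure D4:**
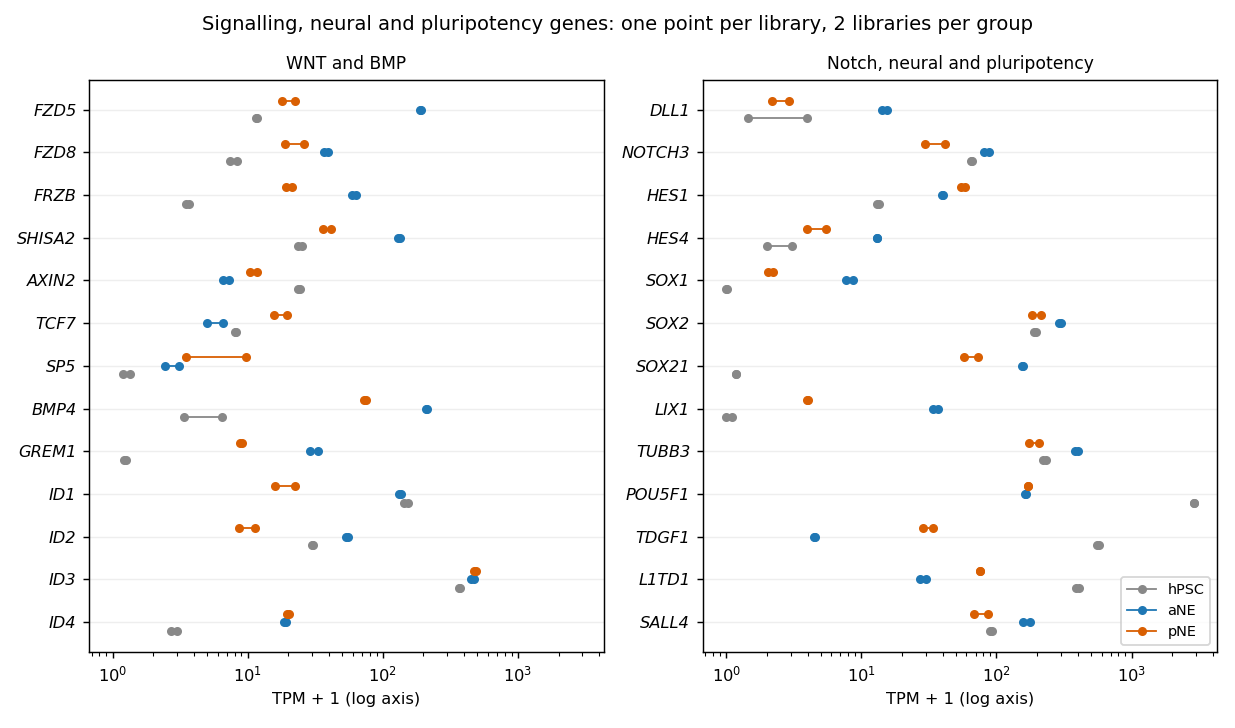
TPM + 1 on a log axis for 13 WNT and BMP genes and 13 Notch, neural and pluripotency genes in hPSC (grey), aNE (blue) and pNE (orange), 1 point per library. FZD5, ID1, ID2, DLL1 and LIX1 show aNE to the right of pNE, whereas ID3, ID4 and POU5F1 show the 2 kinds close together.

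Most markers of the labelled tissue reached 1 TPM in both kinds, at unequal levels, and SOX1 only just did so in pNE. SOX2, shared by stem cells and neural progenitors, had 194 and 188 TPM in hPSC and 289 and 297 TPM in aNE and 181 and 211 TPM in pNE (-0.58, adjusted p = 0.00273). NES, an intermediate filament of progenitors, had 80.8 and 82.3 TPM in hPSC and 289.6 and 275 TPM in aNE and 274 and 346 TPM in pNE, with overlapping values in the 2 kinds and no call (0.13, adjusted p = 0.404). PAX6, the factor most used to mark human neural ectoderm, had 28.9 and 29.3 TPM in aNE and 1.34 and 2.54 TPM in pNE (log2 difference -3.39, SE 0.21, adjusted p = 1.14e-07), so pNE lay well below aNE and above hPSC, 0.0423 and 0.0808 TPM. SOX1, an early neural factor, had 7.73 and 6.66 against 1.05 and 1.22 TPM (-1.94, adjusted p = 2.02e-05), LIX1 33.1 and 36.1 against 2.98 and 3.03 TPM (-3.15, adjusted p = 1.15e-09), SOX21 157 and 152 against 56.8 and 72.6 TPM (-1.25, adjusted p = 0.000579) and the zinc finger gene ZNF521 61.6 and 53.4 against 23.8 and 27.7 TPM (-1.13). FABP7, a lipid carrier of radial glia, was the 1 member higher in pNE, 8.72 and 8.86 against 23.8 and 19.7 TPM (1.21, adjusted p = 0.000656). HES5, a defining Notch target of neural progenitors, was under 1 TPM in all 4. Of 14 pan-neural genes 12 were tested, 5 were lower and 1 higher, against 1.69% and 2.70% of all genes. The median of the 12 was -0.83 against -0.02 for all genes. The summed TPM of the 14 was 401 and 393 in hPSC, 1385 and 1329 in aNE and 829.5 and 999 in pNE. In bulk RNA, fewer cells of a type and less RNA per cell cannot be told apart.

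Markers of other cell types were checked in the same libraries. Among pluripotency genes, NANOG had 77.4 and 76.2 TPM in hPSC and was under 1 TPM in the 4 day-2 libraries, while POU5F1 went from 2899.8 and 2878 TPM to 162 and 164 TPM in aNE and 171 and 169 TPM in pNE, with no call between the kinds (0.06, adjusted p = 0.9). TDGF1 (above) and L1TD1, 29 and 26.3 against 74.7 and 74.8 TPM (1.40, adjusted p = 4.76e-07), were higher in pNE. SALL4, 177 and 156 against 66.6 and 84.8 TPM (-1.13, adjusted p = 4.05e-06), and PRDM14, 24 and 26 against 10.1 and 12 TPM (-1.11, adjusted p = 0.00156), were lower, but neither was called without pNE replicate 1 (SALL4 -0.96, PRDM14 just short of -1). In hPSC SALL4 had 88.3 and 91.3 TPM, so aNE lay well above hPSC and pNE somewhat below it. PRDM14 had 65.1 and 71.6 TPM in hPSC, above both kinds. Of 12 pluripotency genes, 11 were tested, with a median of -0.13. The summed level was 7046 and 7109 TPM in hPSC, 2499 and 2456 TPM in aNE and 2159 and 2250.4 TPM in pNE. POU5F1, NANOG and TDGF1 have near-identical processed pseudogenes, so their values are uncertain by whatever reads the authors' tool assigned to those copies.

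Mesoderm and endoderm genes summed to 42.1 and 40.4 TPM in aNE and 33.3 and 29.8 TPM in pNE over 12 genes, and the defining EOMES, MIXL1 and SOX17 were under 1 TPM in all 4. GSC, a homeobox gene of the organizer and also of the anterior midline, was lower in pNE, 30.4 and 28.4 against 4.84 and 4.33 TPM (-2.44, adjusted p = 8.24e-06). KDR, the VEGF receptor, was higher, 3.35 and 3.56 against 20.9 and 17.6 TPM (2.18, adjusted p = 3.19e-07), below its 53.9 and 52.4 TPM in hPSC. FOXA2, 0.329 and 0.415 against 1.63 and 2.19 TPM, was called higher at 1.08, and missed the threshold of size without pNE replicate 2 (0.94). CER1 was the other lower member, so 2 were higher and 2 lower of 5 tested; FOXA2 had passed the filter only through pNE and CER1 only through aNE. Caudal progenitor genes, which mark cells on the way to spinal cord, were low: TBXT, CDX1, CDX2 and CDX4 were under 1 TPM in all 4, as were 9 of the 12. NKX1-2 was the 1 of 3 tested that was called, 1.55 and 1.23 against 6.94 and 6.19 TPM (1.66, adjusted p = 5.91e-05), under its 28.8 and 30.4 TPM in hPSC. SP5, which is also on that list, made 2 without pNE replicate 1.

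Neural crest genes summed to 25.6 and 27.1 TPM in aNE and 30.8 and 38.9 TPM in pNE, and the defining FOXD3, TFAP2A and PAX3 were under 1 TPM in all 4. SOX10 was the 1 called of 5 tested, 3.36 and 2.44 against 0.708 and 1.14 TPM (-1.02, adjusted p = 0.00421), and was not called without aNE replicate 1 (-0.85) or pNE replicate 1 (-0.86). SOX9, the most abundant tested member and also a gene of neural progenitors, had 13.7 and 15.02 against 21.5 and 26.4 TPM (0.69, adjusted p = 0.000829), and TWIST1 1.10 and 2.05 against 2.46 and 3.73 TPM (0.68, adjusted p = 0.0738); both were higher in pNE and neither was called. Placode and surface ectoderm genes summed to 894 and 893 TPM in aNE and 1506 and 1754 TPM in pNE. Of 17, 14 were tested and 3 were higher in pNE, 1 of which had passed the filter only through pNE. Among the 3 were DLX3, 1.74 and 1.93 against 5.47 and 7.53 TPM (1.39, adjusted p = 0.00689), and KRT18, a keratin of simple epithelium, 291 and 274 against 655 and 723 TPM (1.28, adjusted p = 1.03e-07). TP63, which defines surface ectoderm, and GATA2 were under 1 TPM in all 4. DLX3 was not called without aNE replicate 1 (adjusted p = 0.0521) or pNE replicate 2 (adjusted p = 0.0532), and without pNE replicate 2 MSX2 was called lower. KRT18 and its partner KRT8, 302 and 311 against 439.5 and 509.5 TPM (0.63, adjusted p = 0.000102), have many pseudogenes, so their values are uncertain; they make up most of the sum. The part of other cell types in the differences between pNE and aNE was not tested.

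Other families of the neural plate split by member. IRX1, IRX3 and IRX5, iroquois homeobox genes, were lower in pNE, with IRX3 at 33.3 and 32.1 TPM in aNE and 7.25 and 10.02 TPM in pNE (log2 difference -1.82, SE 0.21, adjusted p = 3.76e-05), IRX1 at 11.7 and 10.8 against 3.32 and 4.59 TPM (-1.32) and IRX5 at 7.55 and 7.25 against 1.42 and 1.26 TPM (-1.85). IRX2, the most abundant of them, had 45.1 and 40.01 against 42.3 and 49.5 TPM (0.10, adjusted p = 0.64), so 3 of 4 tested were lower and 1 was not called. ZIC1, a zinc finger factor of the dorsal plate, had 12.1 and 9.09 against 0.928 and 1.82 TPM (-2.30, adjusted p = 0.000125), while ZIC2 had 269 and 266 against 224 and 283 TPM (-0.09, adjusted p = 0.669). ZIC4, the genomic neighbour of ZIC1, was called at -1.11 from uneven values (1.02 and 2.74 against 0.333 and 0.219 TPM), and was not called when any library but aNE replicate 1 was left out, with -0.67 without aNE replicate 2. Of the 5 ZIC genes 2 were called lower and none higher, and ZIC4 had passed the filter only through aNE. Neuronal genes were low, with 8 of 13 under 1 TPM in all 4, NEUROG2 among them. TUBB3, a tubulin of neurons that stem cells also express, was lower, 383 and 398 against 172 and 206 TPM (-1.05, adjusted p = 8.06e-06), and had -0.92 without pNE replicate 1. INSM1, a factor of newborn neurons, was lower too, 2.41 and 1.35 against 0.0193 and 0 TPM (-1.49, adjusted p = 0.000259), and 4 of the 5 neuronal genes tested, INSM1 among them, had passed the filter only through aNE.

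Adhesion and guidance genes were called at 1 of 14 and 2 of 27 tested, against 4.38% of all genes. CDH6, a cadherin of the neural plate, was the 1 of 14 adhesion genes called, 14.1 and 15.4 TPM in aNE and 53.2 and 56 TPM in pNE (log2 difference 1.82, SE 0.08, adjusted p = 4.55e-09). CDH1, the epithelial cadherin, had 55.6 and 49.8 against 88.6 and 86.3 TPM (0.72, adjusted p = 0.0464) and the neural cadherin CDH2 149.7 and 139 against 95.3 and 96.6 TPM (-0.59, adjusted p = 0.000865), neither past the threshold of size. EPHB3, an ephrin receptor, rose from 3.11 and 1.92 to 21.5 and 25.1 TPM (2.81, adjusted p = 5.57e-07). EFNA5, an ephrin ligand of the forebrain and midbrain, was lower, 65.6 and 57.4 against 17.7 and 28.1 TPM (-1.42, adjusted p = 0.00173). EFNB1, an ephrin ligand, had 27.1 and 25.4 against 50.3 and 55.4 TPM (0.98, adjusted p = 8.88e-07) and ROBO1, a receptor for SLIT proteins, 79.7 and 76.3 against 35.3 and 43.6 TPM (-0.97, adjusted p = 0.000241), both just under the threshold of size. EPHB2 (-0.85, adjusted p = 0.00108), EFNA2 (-0.85, adjusted p = 0.00118) and SLIT2 (0.81, adjusted p = 0.000207) also passed on the adjusted p alone, as did 16.1% of all genes. Of 27 guidance genes tested EPHB3 and EFNA5 were the 2 called; leaving out aNE replicate 1 gave 3 higher and pNE replicate 1 gave 2, while leaving out aNE replicate 2 gave 2 lower and pNE replicate 2 gave 4.

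The growth, stress and metabolic lists held 0 to 2 called members each, and 4.38% of all genes were called. Of 15 cell cycle genes tested only CDKN1C, an inhibitor of cyclin-dependent kinases, was called, 44.8 and 38.6 TPM in aNE and 7.94 and 6.59 TPM in pNE (log2 difference -2.37, SE 0.14, adjusted p = 6.85e-08), and MKI67, the proliferation marker, had 40.8 and 36 against 35.9 and 39.3 TPM (-0.03, adjusted p = 0.92). ANKRD1, a YAP target, was the 1 of 11 YAP and TEAD genes called, 33.8 and 41.2 against 15.1 and 13 TPM (-1.35, adjusted p = 0.00045), and the target CCN1, 143 and 151 against 75 and 72.6 TPM (-0.98, adjusted p = 0.000228), joined it without aNE replicate 1 or pNE replicate 1. HMOX1, heme oxygenase, was higher in pNE, 23.8 and 21.4 against 109 and 110.1 TPM (2.23, adjusted p = 1.95e-09). So was the stress response gene TRIB3, 21.4 and 22.4 against 48.7 and 49.3 TPM (1.13, adjusted p = 7.65e-07). These were the 2 called of 13 stress genes. The heat shock gene HSPA1A, which has a near-identical copy in HSPA1B, had 56.9 and 55.5 against 52.2 and 63 TPM (0.03). ADM, the vasoactive peptide adrenomedullin, rose from 28.2 and 33.9 to 246 and 259 TPM (log2 difference 2.99, SE 0.11, adjusted p = 1.1e-09). The glucose carrier SLC2A1 had 241 and 224 against 533 and 589.6 TPM (1.27, adjusted p = 3.2e-06). ADM and SLC2A1 were the 2 called of 13 glycolysis and hypoxia genes. Of the 13, 12 had a difference above 0, with a median of 0.25 against -0.02 for all genes. That was not particular to this list. Differences above 0 were also found for 12 of 13 cholesterol synthesis genes and 10 of 13 stress genes, but for 4 of 13 mitochondrial genes. The hypoxia targets VEGFA, 68.6 and 62.3 against 67 and 66.8 TPM (0.03, adjusted p = 0.916), and PGK1, 197 and 198 against 202 and 193 TPM (0.00, adjusted p = 0.992), were not called. None of 13 cholesterol synthesis genes and none of 13 mitochondrial genes was called by limma, with medians of 0.25 and -0.02.

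Other genes among the 15 largest rises came from several functions. ATOH8, a basic helix-loop-helix factor, had 0.409 and 0.656 TPM in aNE and 51.9 and 59.1 TPM in pNE (log2 difference 5.21, SE 0.14, adjusted p = 4.36e-11). LAMP5, a membrane protein best known from brain, had 2.5 and 3.9 against 117 and 109 TPM (4.78, adjusted p = 3.7e-09), and CPLX1, a regulator of vesicle release, 0.136 and 0.485 against 29 and 32.7 TPM (4.62, adjusted p = 1.5e-08). CHGA, the granule protein chromogranin A, had 94 and 104 TPM in hPSC and 15.6 and 15 TPM in aNE and 258 and 323 TPM in pNE (4.15, adjusted p = 1.21e-10), so that hPSC lay between the kinds. F13A1, a subunit of coagulation factor XIII, had 1.13 and 0.83 against 35.8 and 34.8 TPM (4.20) and the cell adhesion gene PCDH19 1.2 and 1.38 against 30.5 and 36.4 TPM (3.91). Among the 15 largest falls, NPTX1, a secreted pentraxin of neurons, had 38.5 and 33 TPM in aNE and 0.546 and 0.809 TPM in pNE (log2 difference -4.45, SE 0.35, adjusted p = 9.38e-07). LMO1, a LIM-only cofactor of transcription, had 12.9 and 12.7 against 0.396 and 0.758 TPM (-3.14, adjusted p = 1.77e-07). DLK1, a membrane protein related to Notch ligands, had 124 and 139.8 against 16.4 and 24.5 TPM (-2.66, adjusted p = 8.88e-07) and the uncharacterized CCDC177 17.4 and 17.4 against 1.54 and 2.87 TPM (-2.56).

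**Figure D5:**
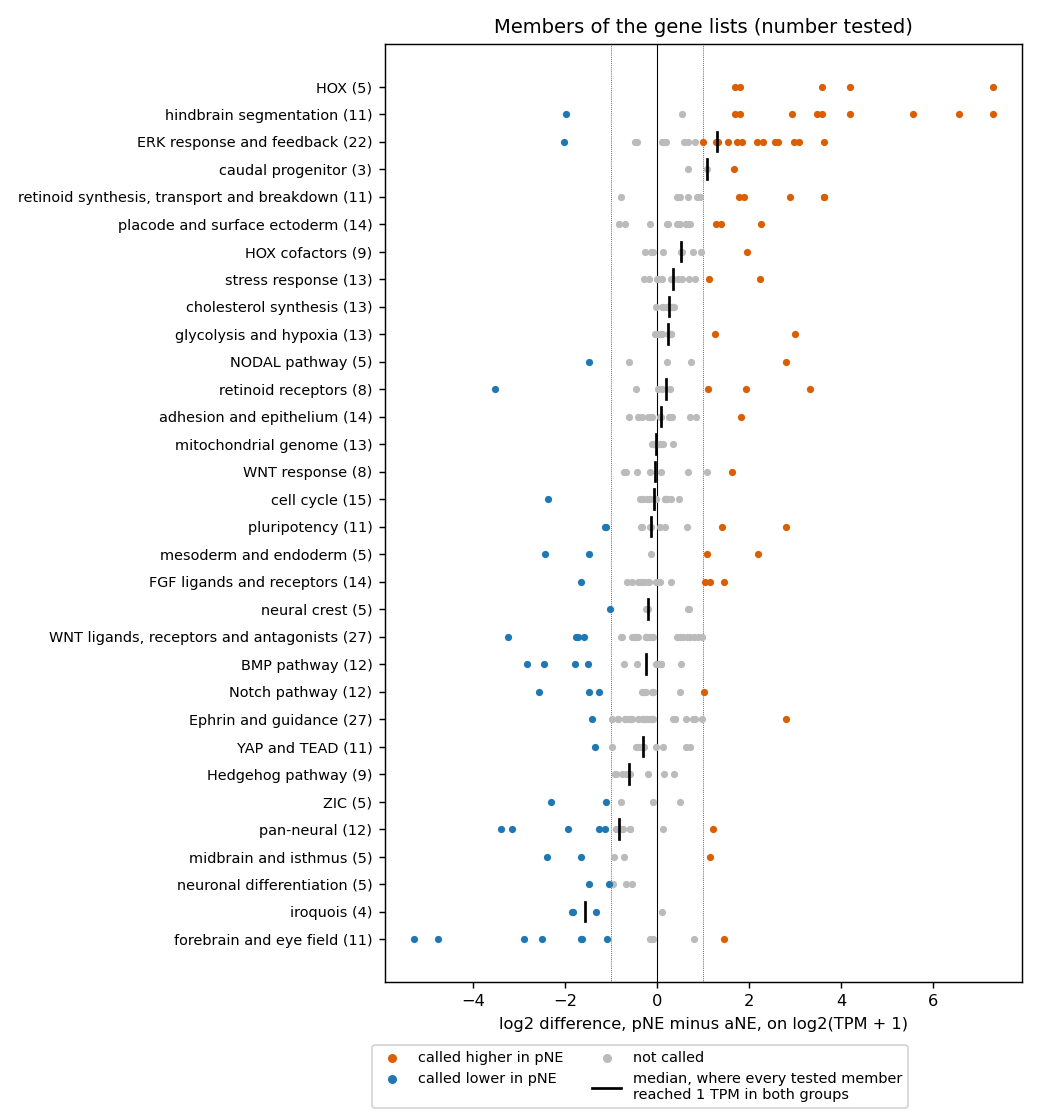
Log2 difference between pNE and aNE of each tested member of the gene lists with 3 or more tested members, on log2(TPM + 1); the number tested stands beside each name. Orange and blue points were called higher and lower in pNE, grey points were not called, and dotted lines mark -1 and 1. A bar marks the median where each tested member reached 1 TPM in both kinds: 1.29 for the 22 ERK genes, -0.83 for 12 pan-neural genes and -1.57 for 4 iroquois genes.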

How the data were processed

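Poly-A RNA of H1 cultures was sequenced, and the authors deposited 1 table of TPM with 37550 rows and a column per library; all 18 columns matched a labelled sample, so columns of no sample numbered 0. The submitters' processing notes name bcl2fastq, FastQC, Trim Galore, kallisto, deepTools and hg38; versions and annotation are not given in the sources used here. Rows without a gene symbol (7898) stayed in. Values were taken as log2(TPM + 1), a pseudocount of 1, for the 14763 genes that reached 1 TPM in 2 or more of the 4 day-2 libraries. A linear model of limma (3.58.1) in R (4.3.3), with a mean for each group and a variance trend, took in all 18 libraries and left 9 residual degrees of freedom. Two-sided p-values were adjusted by the Benjamini-Hochberg method over the 14763 genes. Calls needed an adjusted p under 0.05 and a log2 difference of 1 or more in either direction. The procedure was tested on simulated data.

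Named genes were those of 33 lists (469 genes, of which 342 were tested) and the 15 largest rises and 15 largest falls among called genes that had a symbol, non-overlapping groups and 5 TPM or more on average in the higher group. Others are marked, and some members of the lists, though counted, are not reported here by name. The members and lists were chosen with earlier results of these data known. Lists are described by counts and medians, and no list was tested. Contrasts with hPSC share libraries with the main one and are given as levels only. Alternatives covered pseudocount, filter, scaling, libraries fitted, replicate block, threshold, symbols and each library left out. Sequences are from RefSeq (GRCh38.p14).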

Additional observations from a re-analysis of the deposited data

How the results depend on the processing

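The 647 calls (398 higher, 249 lower in pNE) became 744 (455, 289) with a pseudocount of 0.1, 638 (394, 244) with no filter on low values, 478 (301, 177) with a filter at 5 TPM, 644 (401, 243) with median-ratio scaling, 756 (459, 297) with quantile normalization, 591 (364, 227) in a fit of the 4 libraries, and 617 with symbols only. Dropping the threshold of size gave 2382 (1289 higher, 1093 lower). Leaving out 1 library gave 624 to 702 calls, 369 to 419 higher and 219 to 333 lower; the lone library of the group was then assumed to vary like the other groups. With the threshold of size kept, 73.4% to 99.5% of the 647 were called again in the same direction. Same-numbered libraries of aNE and pNE did not deviate together (r = -0.0187 across genes, within the -0.124 to 0.0963 of all 36 pairs of groups). No pairing by number was thus seen, but with 2 libraries a group this check cannot exclude it. A fit with the replicate number as a block gave 649 calls (396 higher, 253 lower). Of 356 named genes tested 109 were called, none reversed under these alternatives, 93 kept their call in each alternative that tested them and 16 lost it in at least 1: PRDM14, SALL4, FEZF2, FGF8, FGF18, HOXA3, RARA, FGF13, SPRED3, IER3, ZIC4, FOXA2, SOX10, DLX3, HEY2 and TUBB3. With 2 libraries a group and unknown read depth, differences of genes near 1 TPM are the least certain.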

Other observations

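The groups in this section were put together after their values were seen, so their counts are descriptions, beside the 2.70% higher and 1.69% lower over all genes. Genes of secretory granules and neuropeptides were higher in pNE at 7 of 12 tested, none lower; NTS, 1 of the 7, had passed the filter on low values only through pNE. CPE, a carboxypeptidase that trims peptide hormones, had 34.9 and 40.9 TPM in aNE and 379 and 379.7 TPM in pNE (log2 difference 3.29, SE 0.07, adjusted p = 4.25e-12), against 13 TPM on average in hPSC. VGF, a granule protein, had 56.4 and 55 against 203 and 274 TPM (2.06, adjusted p = 1.46e-05), the peptide gene NMU 9.22 and 8.38 against 48.2 and 39.2 TPM (2.18, adjusted p = 5.46e-06) and TAC1, which encodes substance P, 8.11 and 7.93 against 20.5 and 20.6 TPM (1.26, adjusted p = 0.00321). CHGB, the relative of CHGA, had 2.56 and 2.42 against 3.07 and 2.55 TPM (0.12, adjusted p = 0.677), and the processing enzyme gene PCSK1 1.93 and 1.03 against 0.303 and 0.191 TPM (-0.97, adjusted p = 0.0172). Beside HMOX1, 2 more of 12 genes induced by the oxidant sensor NRF2 were called higher: NQO1, 180.0 and 168 against 374 and 329.9 TPM (1.01, adjusted p = 5.91e-07), and SQSTM1, 113 and 117 against 264 and 296 TPM (1.27, adjusted p = 1.3e-06). GCLM (0.91) and SRXN1 (0.92) had adjusted p-values of 0.000356 and 3.53e-06 below the threshold of size, and OSGIN1 had 1.11 and 0.835 against 0.631 and 1.41 TPM (0.01, adjusted p = 0.986).

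Antagonists of BMP, NODAL and activin were lower in pNE at 6 of 10 tested, none higher; 3 of the 6, CER1, SMOC2 and WFIKKN2, had passed the filter only through aNE. FST, which binds activin, had 99.6 and 105 TPM in aNE and 27.5 and 24.9 TPM in pNE (log2 difference -1.92, SE 0.14, adjusted p = 5.36e-07), SMOC2 4.63 and 5.13 against 0.901 and 0.692 TPM (-1.71, adjusted p = 4.68e-05) and WFIKKN2, which binds growth and differentiation factors, 2.83 and 2.93 against 0.142 and 0.396 TPM (-1.62, adjusted p = 6.64e-05). CHRD, which encodes chordin, had 1.88 and 1.61 against 2.34 and 3.68 TPM (0.53, adjusted p = 0.109). Genes of tubulin and neurites were lower at 8 of 15, 1 of which, CELF3, had passed the filter only through aNE. Among them were DPYSL3, 751 and 734 against 279 and 318 TPM (-1.31, adjusted p = 5.23e-06), BASP1, 364 and 379 against 177 and 188 TPM (-1.02, adjusted p = 6.59e-08), and the transcription factor SOX11, 75 and 71.1 against 26.9 and 36.4 TPM (-1.20, adjusted p = 1.7e-05). GAP43, a growth cone protein, had 20.6 and 20.9 against 33 and 31.9 TPM (0.62, adjusted p = 0.00254) and TUBB2A 105 and 103 against 191 and 201 TPM (0.91, adjusted p = 1.91e-05), both with higher values in pNE and neither called. Of 15 tested receptors and ligands known from vessels, 6 were higher, APLN having passed the filter only through pNE, and 1 was lower: KITLG had 5.96 and 6.27 against 20.1 and 17.8 TPM (1.48, adjusted p = 1.22e-05), PDGFB 8.35 and 10.4 against 25 and 27.2 TPM (1.39, adjusted p = 0.00455), and TEK, the angiopoietin receptor, the lower one, 22.2 and 21.1 against 8.31 and 8.17 TPM (-1.29, adjusted p = 1.04e-05).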
